A study of Homo sapiens with 36 samples.

Results

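The transcripts of 8 genes around the adaptor GRB2 were followed through the eCLIP maps of 9 RNA-binding proteins. The genes were GRB2, SOS1, SOS2, SHC1, GAB1, CBL, PTPN11 and EGFR, and they were chosen by name because their protein products bind GRB2 or act beside it at activated receptors. Members were all windows assigned to one of these symbols in the 9 tables of reproducibly enriched windows. They came to 456 windows over all lists, of 788098 in the series, and to 352 distinct windows, of 601384. Of the 8 transcripts, 6 had a window in at least one list, a share to be read beside the 47.8% of RefSeq protein-coding symbols that had one. EGFR and GAB1 had no row in the tables used here, and no listed window assigned to another gene overlapped their loci.

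The series comprised 36 libraries from HEK293T, a transformed human embryonic kidney cell line, with no treatment condition per the series' design text. For each of the 9 proteins there were 2 immunoprecipitated (IP) libraries and 2 input libraries. In eCLIP, protein and RNA are crosslinked in living cells, the RNA is fragmented, and the fragments held by one protein are recovered with an antibody. Here the antibody recognised either the protein or a V5 tag, and the labels do not say which one served for which protein. Whether any protein, GRB2 included, was expressed from a tagged transgene is therefore unknown here. They also leave unsaid whether the replicates came from different cultures, and the distance between replicates may therefore be technical only. The proteins were CPSF5 (gene NUDT21) and CPSF6 of cleavage factor Im, the translation factor EIF4B, the signalling adaptor GRB2, the lectin LGALS3, the muscleblind splicing regulator MBNL2, the splicing factors RBM10 and RBM22, and the exon junction protein RNPS1. GRB2 therefore enters as an assayed protein and as a transcript, and the words "GRB2 protein list" and "GRB2 transcript" keep the 2 apart.

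When a growth factor binds a receptor tyrosine kinase such as EGFR, tyrosines of the receptor tail become phosphorylated. GRB2 docks there directly or through the adaptor SHC1, and brings with it the exchange factors SOS1 and SOS2, which load RAS with GTP and so start the MAP kinase cascade. GAB1 is a large docking protein carried by GRB2, and PTPN11 encodes the phosphatase SHP2, which GAB1 recruits and which promotes RAS signalling. CBL, a ubiquitin ligase that GRB2 also carries, marks the receptors for internalisation and breakdown.

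The tables give for each window of at most 100 nt the IP reads and the input reads, each summed over replicates, and a log2 enrichment of IP over input. The enrichment is the authors' own value, and it was used only to describe and rank windows within a list. Each window's enrichment is printed below as 2 values, the lower replicate first and the higher after it, because both replicates had to pass the call. Between 187076 (LGALS3) and 13313477 (GRB2) IP reads fell in listed windows, and total library depths are unknown. No value per library was available, so no test between conditions was possible and all comparisons below are descriptions. Where a list lacks a window, that stretch may have been free of enrichment or may have had too few reads for a call.

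The bases at transcript starts are shown first, since windows in the 5' UTR held most of the IP reads in the EIF4B windows of these transcripts taken as a set. For 5 of the 8 genes a promoter entry was matched in RefSeq (GRCh38.p14), and for 4 of these the first 30 transcribed bases at a RefSeq start lay inside a listed EIF4B window. They are given 5′ to 3′ in lower case on the transcript's strand, which is the minus strand in all 4.
SHC1, chr1:154974347-154974376: gagtgtaataaagtttctccagggaggcag
SOS1, chr2:39121022-39121051: agtagcgagcaggttcagttcgctagtagg
SOS2, chr14:50231549-50231578: agaagcgggccagcgccgccgggaaaggag
GRB2, chr17:75405649-75405678: agccaggaggtattgctgcttcggcgaccg

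These starts differed in base composition. G and C made up 46.7% of the 30 bases in SHC1, 53.3% in SOS1, 63.3% in GRB2 and 73.3% in SOS2. The window over the GRB2 start (chr17:75405629-75405699) held 566 IP reads and 9 input reads, and the window over the SHC1 start (chr1:154974322-154974395) held 53 and 2. The SOS1 start window (chr2:39120962-39121051) held 293 IP reads and 19 input reads, and the SOS2 start window (chr14:50231480-50231578) held 203 and 7. RNA levels of these transcripts were not measured, and a relation of the reads to base composition was not tested.

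EIF4B stimulates the EIF4A helicase, which unwinds the 5' UTR ahead of the scanning ribosome. All 6 transcripts were in its list, which held 89.2% of the 11298 genes listed for any protein. Of their 40 EIF4B windows, 21 (52.5%) lay in a 5' UTR, against 30.6% of the windows of the whole list, and 13 (32.5%) were coding, against 30.3%. The 5' UTR windows held 7388 of the 7965 IP reads in these windows (92.8%), with 220 input reads, and all 21 had a highest q-value of at most 0.05. Reads outside listed windows are not known, and the same read share for the whole list is not given here. Their median GC content was 77.1%, with a range of 56.8% to 92.2%, against a median of 70.5% for the 5' UTR windows of the whole list.

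PTPN11 had the most IP reads in EIF4B windows of the 6 transcripts. Its 3 windows in the 5' UTR held 2543 IP reads, 97.1% of those in its listed EIF4B windows. The window at its first bases (chr12:112418909-112418975, plus strand) had 1247 IP reads and 15 input reads, with enrichments of 5.45 and 5.71. SOS1 followed, with 7 windows that ran without a gap over its 5' UTR from chr2:39120423 to 39121051 and held 2379 IP reads (94.3%). The windows of this run had between 224 and 456 IP reads each and a GC content of 70% to 92.2%. The run began at the start at position 39121051, and no window lay on the RefSeq start farther upstream at position 39124868.

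In the GRB2 transcript, 5 windows of the 5' UTR held 1610 IP reads (92.8%). They fell into 2 places, with 3 windows at the start of the gene and 2 just before the start codon, about 12 kb into the gene. The strongest was the start window printed above, at 5.02 and 5.24. All 3 EIF4B windows of SOS2 were in the 5' UTR, with 592 IP reads in all, and the strongest of them (chr14:50231382-50231479) had 297 IP reads and 4 input reads, at 4.71 and 5.57. SHC1 had 105 reads in 2 such windows, 64.4% of those in its EIF4B windows, and replicates that lay farther apart at its start, 3.95 and 6.08. CBL had a single 5' UTR window (chr11:119206339-119206417), with 159 IP reads and 3 input reads at 4.60 and 4.67. The adjoining start codon window, its only other EIF4B window, held 175 IP reads.

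**Figure D1:**
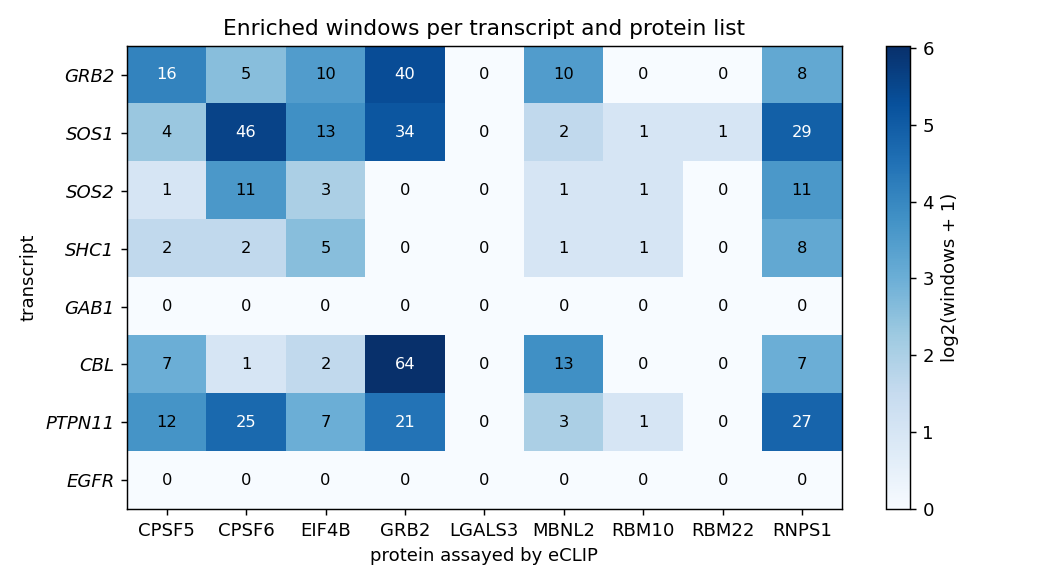
Number of enriched windows of each transcript (rows) in each protein's list (columns), with the colour giving log2 of the number plus 1. CBL has 64 windows in the GRB2 protein list and 1 in the CPSF6 list, SOS1 has 46 in the CPSF6 list and 2 in the MBNL2 list, and the GAB1 and EGFR rows are at 0.

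The 9 lists differed widely in how many windows they placed on these transcripts. The GRB2 protein list had 159, CPSF6 and RNPS1 had 90 each, CPSF5 had 42, EIF4B 40 and MBNL2 30. RBM10 had 4, RBM22 had 1 and LGALS3 had 0. By transcript, SOS1 had 130 windows in 8 lists, PTPN11 96 in 7 lists, CBL 94, GRB2 89, SOS2 28 and SHC1 19, the last 4 in 6 lists each. The number of windows a gene can hold grows with its length. SHC1 spans 12.1 kb (chr1:154962298-154974376, minus strand), against 87.6 kb for GRB2 (chr17:75318076-75405678, minus), 91.0 kb for PTPN11 (chr12:112418947-112509918, plus) and 102 kb for CBL (chr11:119206339-119308149, plus). SOS1 spans 143 kb (chr2:38981549-39124868, minus) and SOS2 115 kb (chr14:50117130-50231882, minus). GAB1 (138 kb) and EGFR (193 kb), with no window at all, are both longer than GRB2, and the part of length in these counts was not tested.

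CPSF5, which reads UGUA-type elements upstream of poly(A) sites, had windows on all 6 transcripts, with 61.1% of listed genes in its list. Of the 42 windows, 41 (97.6%) lay in a 3' UTR, against 78.9% over the whole list, and the remaining one was the GRB2 stop codon. In the 3' UTR windows the median GC content was 36.4%, against 34.3% in the whole list. By distance from window centre to the RefSeq gene end, 7 of the 41 were within 200 nt and 17 within 500 nt. The median enrichment of the lower replicate was 3.09 for the transcripts and 2.81 for the list.

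The strongest CPSF5 window was in PTPN11 (chr12:112509619-112509718), with 464 IP reads and 6 input reads at 6.41 and 6.89. It was centred 249.5 nt before the gene end. It stood in an unbroken run of 10 windows covering the last stretch of the 3' UTR, in which the other windows had 21 to 160 IP reads. The window after it had 160 and the last window of the gene 47, while the window before it had 79.

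The GRB2 transcript carried CPSF5 windows along its 3' UTR. It had 15 there, from 49 to 2141.5 nt before the gene end, and 356th place among 6903 genes by number of windows, with 93.9% of the genes having fewer. Its strongest window (chr17:75318076-75318174) was the last of the gene, with 196 IP reads and 6 input reads at 5.05 and 5.77. The next window upstream had 71 IP reads and replicates farther apart, at 3.02 and 6.47.

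CBL had 2 separate CPSF5 groups in its long 3' UTR. The first, of 3 windows, lay 49.5 to 249 nt before the gene end, and the other, of 4, lay 7621 to 8218.5 nt before it, near the stop codon. The strongest (chr11:119307950-119308049) had 45 IP reads and no input read, at 5.39 and 5.86, and its GC content was 23.0%. The distal group reached 68 IP reads in a window and the proximal group 30. Highest q-values in the distal group ran from 0.000362 to 0.0697. In the proximal group the window with 30 IP reads had 0.0248, and the others had 0.129 to 0.196. SOS1 had 3 windows 148 to 347 nt from the end and 1 at 3329.5 nt. That last window had 15 IP reads, 5 input reads and a highest q-value of 0.133.

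The SOS1 window nearest the end (chr2:38981648-38981746) had 23 IP reads and no input read, at 4.72 and 5.34. SHC1 had 2 adjoining windows, 422.5 and 516.5 nt from the end, the stronger (chr1:154962768-154962861) with 28 IP reads and no input read at 5.11 and 5.22. SOS2 had only 1 (chr14:50117596-50117689), with 14 IP reads and 1 input read, at 2.70 and 4.52. That window has a highest q-value of 0.12, the weakest support among the strongest CPSF5 windows of the 6 transcripts.

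**Figure D2:**
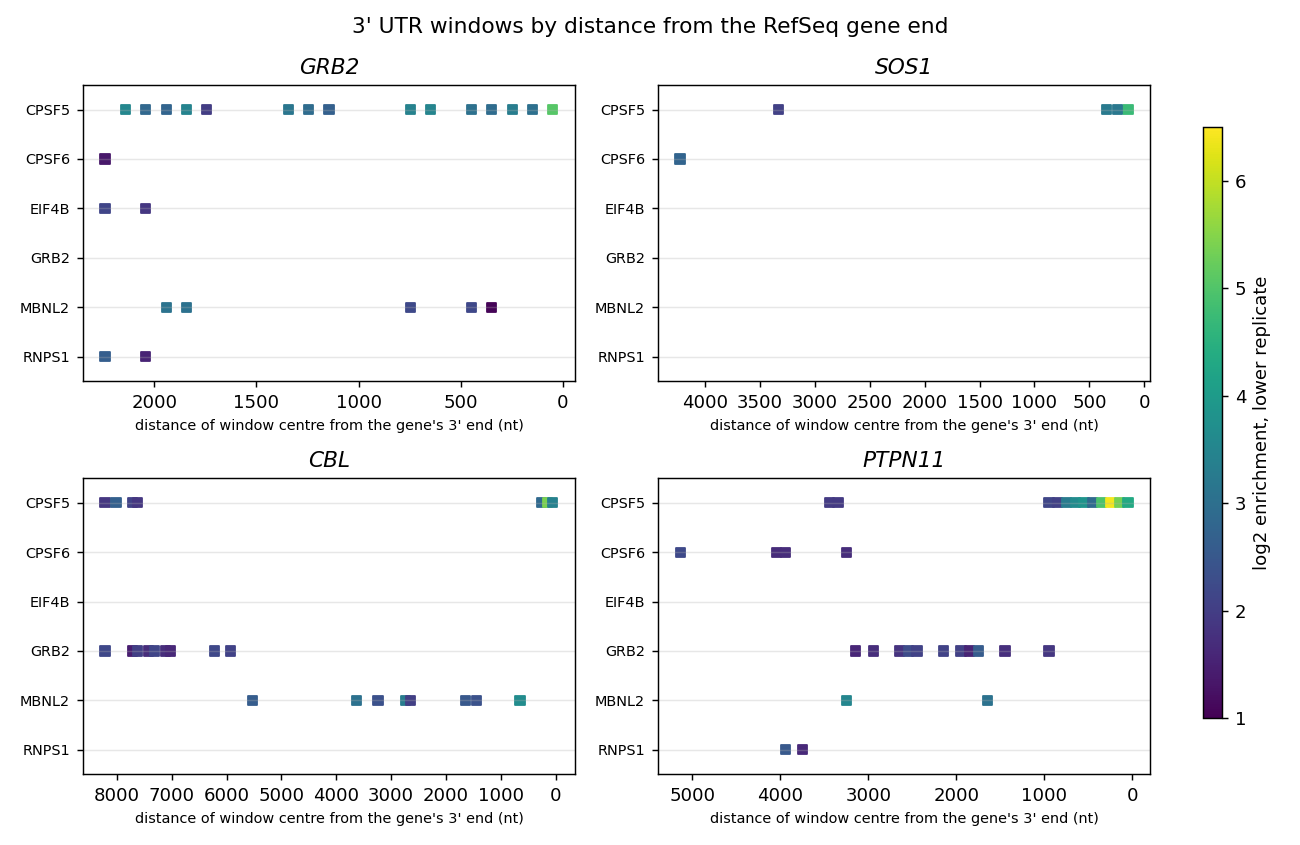
Place of each 3' UTR window of GRB2, SOS1, CBL and PTPN11, as the distance of its centre from the RefSeq gene end in nt, by protein list, with the colour giving the log2 enrichment in the lower replicate. CPSF5 windows crowd toward the end of PTPN11 and run along that of GRB2, while in CBL the windows of MBNL2 (647.5 to 5529 nt) lie between the CPSF5 groups and those of the GRB2 protein list start at 5927.5 nt.

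The GRB2 protein list held 4 of the transcripts, GRB2, SOS1, CBL and PTPN11, and 46.7% of all listed genes. Among listed protein-coding genes of at least 80 kb, 89.8% were in it. That length was set after the values were seen. Of the 5 listed transcripts at least that long, 4 were in the list and SOS2 was not. Deep intron windows, more than 500 nt from a splice site, made up 137 of the 159 (86.2%), against 93.1% of the whole list. The 3' UTR held 20 (12.6%), against 1.42%.

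CBL had the most windows in the GRB2 protein list, 64, with 75.8% of listed genes having fewer, and 54 of them lay in a single intron, 30.4 to 60.6 kb from the gene start. The strongest (chr11:119257656-119257755) had 59 IP reads and no input read, at 5.66 and 5.81. Others in that intron came close, such as chr11:119266642-119266741 with 56 IP reads and no input read at 5.25 and 5.81. The 54 windows formed 18 separate stretches.

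The GRB2 transcript had 40 windows in the list of its own protein, and all 40 were in deep introns, none in an exon. They lay in 2 introns, 24 windows in one (18.9 to 53.3 kb from the start) and 16 in the other (14.5 to 16.9 kb). The strongest (chr17:75372392-75372491) had 99 IP reads and 2 input reads, with replicates at 4.78 and 4.79. The strongest of the other intron (chr17:75388889-75388987) had 34 IP reads and no input read, at 4.75 and 4.99.

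SOS1 had 32 of its 34 windows in 1 intron, 5.08 to 48.5 kb from the start, in 19 stretches. Support was thinner there: the strongest window (chr2:39103241-39103340) had 33 IP reads and no input read at 4.28 and 5.32, and the next by enrichment in that intron had 18. PTPN11 was divided otherwise, with 11 of 21 windows in the 3' UTR and 10 spread over 4 introns. Its strongest window (chr12:112498253-112498351) was intronic, with 22 IP reads and no input read, at 4.13 and 4.67.

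The 2 classes of window in the GRB2 protein list differed in strength. The 137 deep intron windows had a median enrichment of 3.10 in the lower replicate, 41 had no input read, and 52 had a highest q-value of at most 0.05. The 20 windows in 3' UTRs, 9 in CBL and 11 in PTPN11, had a median of 1.94, each had at least 1 input read, and 2 had such a q-value. Over all member windows the median was 2.68, against 3.38 for the whole list. Of the member windows 34.0% had a q-value of at most 0.05 and 26.4% had no input read, against 50.9% and 36.8% of the whole list. Introns belong to unspliced RNA, and the amount of such RNA was not measured here.

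**Figure D3:**
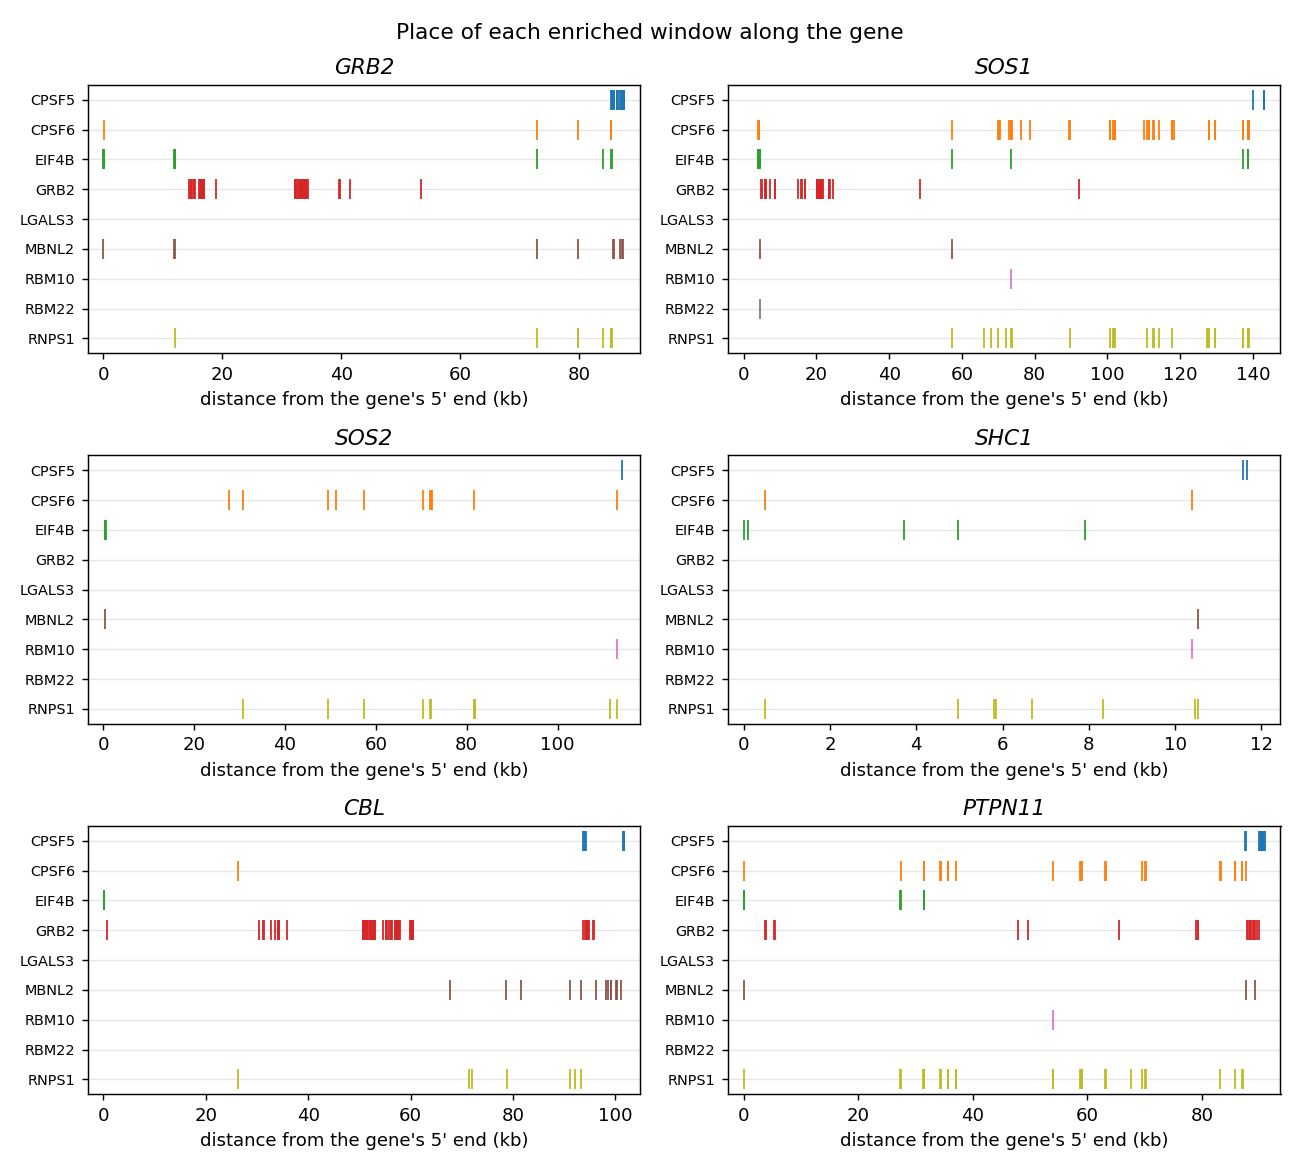
Place of every enriched window along GRB2, SOS1, SOS2, SHC1, CBL and PTPN11, as distance from the gene's 5′ end in kb, with 1 row for each protein. The 21 EIF4B windows in 5' UTRs stand toward the left and 13 coding ones farther in, CPSF5 windows stand at the right, and those of the GRB2 protein list form blocks such as the CBL block from 30.4 to 60.6 kb.

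CPSF6, the partner of CPSF5 in cleavage factor Im, listed all 6 transcripts, as it did 84.2% of listed genes. Its windows were placed otherwise than those of CPSF5: 68 of 90 (75.6%) were coding, against 46.3% over the whole list, and 3 (3.33%) were deep intron, against 23.4%. SOS1 alone had 46 windows, 35 of them coding, and 92.0% of listed genes had fewer. PTPN11 had 25 (19 coding) and SOS2 had 11, all coding. GRB2 had 5, SHC1 2 and CBL 1. The CPSF6 and CPSF5 lists shared 1 member window, 1.11% of those of CPSF6 and 2.38% of those of CPSF5, against 3.52% and 14.1% over the whole lists. It was the GRB2 stop codon (chr17:75320368-75320467), where CPSF6 had 35 IP reads and 5 input reads at 2.55 and 2.72, and CPSF5 had 28 and 12 at 1.49 and 2.44.

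RNPS1, a component of the exon junction complex that is deposited upstream of exon junctions, listed all 6 transcripts, with 87% of listed genes in its list. It had 77 of 90 windows (85.6%) in coding sequence, against 63.3% in the whole list. SOS1 had 29 windows, PTPN11 27, SOS2 11, GRB2 and SHC1 8 each, and CBL 7. Of SHC1's 19 windows over all lists, 8 were thus from RNPS1, more than from any other protein, and its 6 coding windows of RNPS1 had no CPSF6 counterpart.

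Many coding windows were in both of these lists. Of 68 coding windows of CPSF6 and 77 of RNPS1, 50 were the same windows, 18 in PTPN11 (of 19 and 21), 23 in SOS1 (of 35 and 28) and 6 in SOS2 (of 11 and 11). Over all classes 55 windows were shared, 61.1% of the member windows of each list, against 56.3% of the whole CPSF6 list and 57.3% of the whole RNPS1 list. Both lists named the same PTPN11 window as the strongest of that transcript (chr12:112502144-112502199). There RNPS1 had 44 IP reads and no input read at 5.68 and 6.23, and CPSF6 had 81 and 8 at 3.86 and 4.37.

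In the other transcripts the strongest windows of the 2 proteins differed. In SOS2 they adjoined, with CPSF6 at chr14:50150156-50150230 (27 IP reads, no input read, 5.06 and 5.15) and RNPS1 at chr14:50150082-50150155 (12 IP reads, no input read, 4.15 and 4.24). In SOS1 CPSF6 was strongest at chr2:39007031-39007111, with 71 IP reads and 5 input reads at 4.003 and 4.79. RNPS1 was strongest there at chr2:39054754-39054823, with 23 and 2 at 4.33 and 5.52. In the GRB2 transcript RNPS1 was strongest over the start codon (chr17:75393551-75393628), with 123 IP reads and 4 input reads at 4.66 and 4.86.

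In SHC1 RNPS1 was strongest over the stop codon (chr1:154963803-154963902), with 48 IP reads and 1 input read but replicates as far apart as 4.02 and 5.86. In CBL its strongest window was coding (chr11:119277757-119277844), with 17 IP reads and no input read at 4.23 and 4.67. The single CPSF6 window of CBL had 13 IP reads and 2 input reads at 2.55 and 3.25, and the strongest of SHC1, in a short intron (chr1:154973835-154973921), had 10 IP reads and no input read at 3.46 and 3.50.

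**Figure D4:**
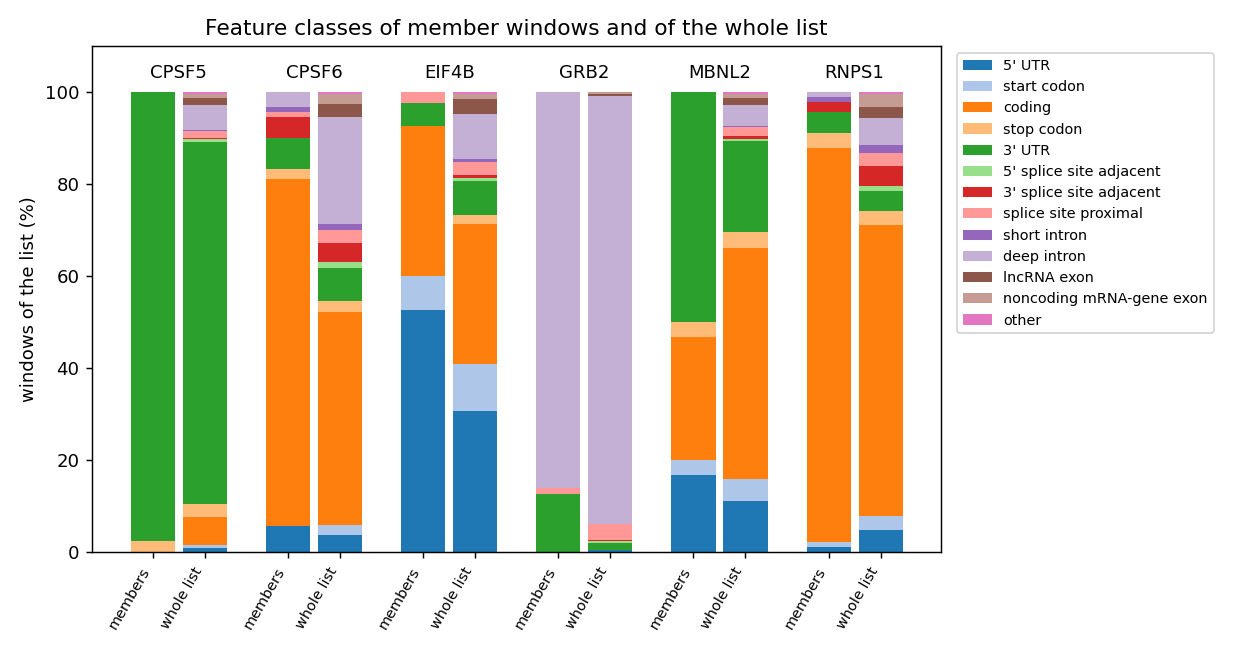
Share of windows in each feature class (percent of windows, stacked) for the member transcripts (left bar) and the whole list (right bar) of the 6 proteins with at least 30 member windows. For CPSF5 97.6% of member windows are in the 3' UTR, for RNPS1 85.6% are coding, and for the GRB2 protein list 86.2% are deep intron.

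MBNL2, which binds YGCY-type elements in introns and 3' UTRs, listed all 6 transcripts, as it did 62.2% of listed genes. Of 30 windows, 15 (50%) were in a 3' UTR, against 19.7% in the whole list, and 8 (26.7%) were coding, against 50.1%. Weighted by IP reads the 3' UTR share was 32.9%, and the 5 windows in 5' UTRs held 360 of the 732 IP reads. CBL had 13 of the 30 windows, more than 86.7% of listed genes, and GRB2 had 10. The CBL windows were 5 coding and 8 in the 3' UTR, 647.5 to 5529 nt before the gene end, and 5 of these 8 had a highest q-value of at most 0.05. The strongest was coding (chr11:119299495-119299587), with 19 IP reads and no input read, at 4.13 and 5.73.

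In the GRB2 transcript, the strongest MBNL2 window was also coding (chr17:75325959-75326020), with 29 IP reads and 4 input reads at 4.02 and 4.30. Its 5 windows in the 3' UTR, 347.5 to 1942.5 nt before the gene end, were all listed for CPSF5 as well. For one of them (chr17:75318374-75318473) the MBNL2 values were 52 IP reads and 12 input reads at 1.05 and 1.46, and the CPSF5 values 42 and 4 at 2.92 and 3.49. These 5 were the only member windows in both lists, 16.7% of those of MBNL2, against 9.99% of the whole MBNL2 list. In the MBNL2 list only 1 of the 5 had a highest q-value of at most 0.05. In the CPSF5 list these q-values were at most 0.00948. The MBNL2 windows in the 3' UTRs of CBL and PTPN11 were not listed for CPSF5. PTPN11 had 3 MBNL2 windows, SOS1 had 2, and SOS2 and SHC1 had 1 each. The SOS2 window had replicates at 1.91 and 4.84, the widest spread among the strongest windows of this list. One SOS1 window (chr2:39067628-39067690) was listed with 4 IP reads and 4 input reads, so a few reads carry that call.

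RBM10, a regulator of exon skipping, listed 4 of the transcripts with 1 window each, beside 45.1% of listed genes. In SHC1 the window was next to a 3' splice site (chr1:154963932-154964031), with 29 IP reads and no input read at 4.34 and 4.85. In PTPN11 (chr12:112472844-112472943) it was likewise, with 25 and 2 at 3.17 and 4.17, and in SOS1 (chr2:39051288-39051387) with 31 and 8 at 1.91 and 3.67. The SOS2 window was coding (chr14:50118690-50118771), with 45 IP reads and no input read at 4.74 and 5.42. Windows next to a 3' splice site made up 32.0% of the RBM10 list, and all 4 windows were listed for another protein too, 3 for CPSF6 and 1 for RNPS1. Of the whole RBM10 list, 26.5% was shared with CPSF6 and 28.4% with RNPS1, and 4 windows are too few to set against these shares.

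RBM22, a component of the catalytic spliceosome, listed SOS1 only, with 23.2% of listed genes in its list. The window lay next to a 5' splice site (chr2:39120236-39120335), the class of 20.1% of the RBM22 list, and had 48 IP reads and 3 input reads at 2.74 and 3.11. LGALS3 listed none of the transcripts, and 3.27% of listed genes. Its list is the shortest of the series, with 1002 windows.

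**Figure D5:**
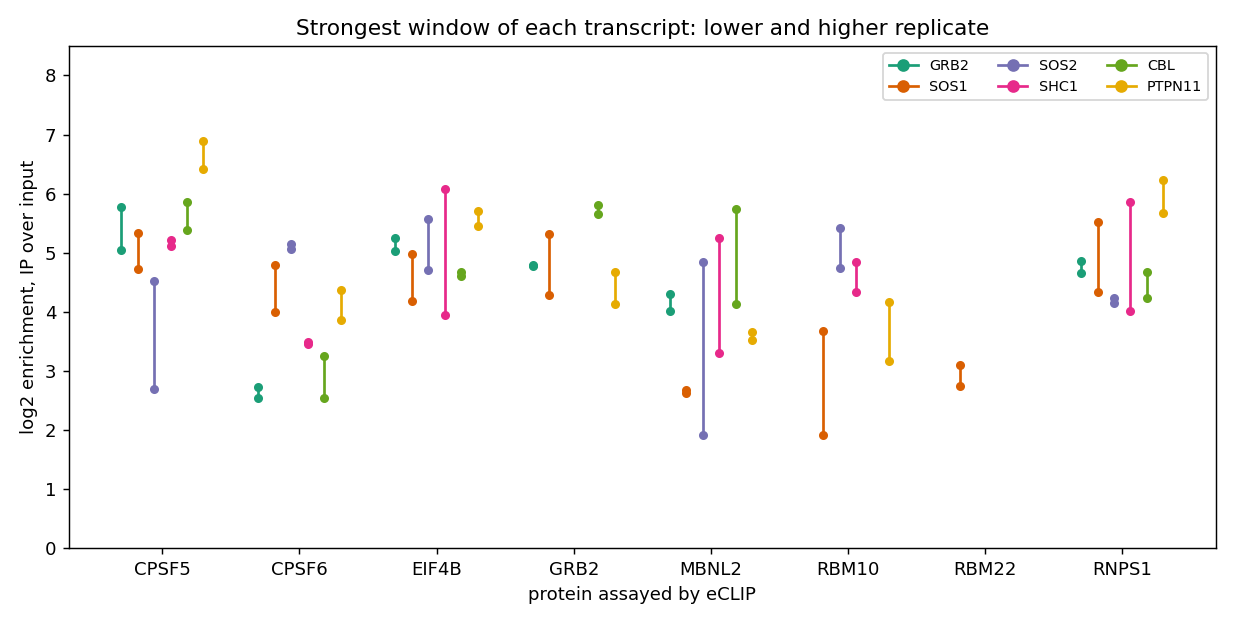
Log2 enrichment of IP over input in the strongest window of each transcript and list, with the lower and the higher replicate joined by a line. The PTPN11 window of CPSF5 is highest, at 6.41 and 6.89, and the lowest values, at 1.91, belong to SOS2 in the MBNL2 list and SOS1 in the RBM10 list.

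Across the lists, 39 pairs of transcript and protein had a window. In the strongest window of each, the lower replicate lay between 1.91 and 6.41, 31 had a highest q-value of at most 0.05, and 14 had no input read. The median gap between replicates over all member windows was 0.508 for CPSF6, 0.638 for EIF4B, 0.687 for MBNL2, 0.752 for CPSF5, 0.909 for RNPS1 and 0.945 for the GRB2 protein list. For the whole lists it lay between 0.684 for MBNL2 and 0.860 for RNPS1 among the same 6 proteins. Differences in strength below about 1 on this scale are therefore within the usual distance between replicates. As these are medians, 1 is not a cutoff, and larger differences can also lie within that distance. One SOS1 window in the EIF4B list (chr2:39120872-39120961), for example, had replicates at 3.98 and 7.81.

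Of the 352 distinct windows, 88 (25%) were listed for at least 2 proteins, against 22.3% of all distinct windows in the series. PTPN11 had 26 of its 66 distinct windows in more than 1 list and SOS1 29 of 96, while CBL had 6 of 88. There were 74 windows in 2 lists, 12 in 3 and 2 in 4. Both windows in 4 lists were coding and were listed for CPSF6, EIF4B, MBNL2 and RNPS1, one in the GRB2 transcript (chr17:75332700-75332797) and one in SOS1 (chr2:39067628-39067690). In the window of the GRB2 transcript, CPSF6 and RNPS1 each had 63 IP reads, EIF4B 25 and MBNL2 11.

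The GRB2 protein list shared no member window with the lists of CPSF6, EIF4B, MBNL2 or RNPS1. As a whole it shared 0.494%, 0.412%, 0.335% and 0.320% of its windows with these lists in that order, so 0 of 159 is near what the whole list shows. With CPSF5 it shared 4 member windows, 2.52% of its own and 9.52% of those of CPSF5, against 0.424% and 3.18% over the whole lists. Of the 4, 3 were in the CBL 3' UTR and 1 in that of PTPN11. Support for these was weak, with highest q-values of 0.0717 to 0.160 in the GRB2 protein list. In the CPSF5 list they were 0.0380 in PTPN11 and 0.129 to 0.196 in CBL. The GRB2 protein list also had 12.6% of its member windows in 3' UTRs, against 1.42% of the whole list. In the CBL 3' UTR, its 9 windows lay 5927.5 to 8218.5 nt before the gene end, upstream of all 8 MBNL2 windows. In PTPN11 its 11 windows lay 948.5 to 3145.5 nt before the end. The CPSF6 windows of that 3' UTR lay farther upstream (3245.5 to 5137.5 nt), as did 2 CPSF5 windows (3345.5 and 3445 nt), and the window at 948.5 nt is also the first of the CPSF5 run.

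SOS1 and SOS2 are paralogs with the same role, and their windows were divided alike among some lists and not others. CPSF6 supplied 35.4% of the SOS1 windows and 39.3% of those of SOS2, and EIF4B 10% and 10.7%. RNPS1 supplied 22.3% and 39.3%. The GRB2 protein list supplied 34 windows to SOS1 (26.2%) and none to SOS2, though SOS2 spans 115 kb. Over all lists SOS1 had 5943 IP reads in its windows and SOS2 1013, and as RNA levels were not measured, lower binding and less RNA cannot be told apart for any of these transcripts.

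For the rest of the pathway, 70 further genes in 6 lists were looked up, and 46 of them had a window in some list, beside the 47.8% of RefSeq protein-coding symbols given above. These were 8 of 11 receptors, 9 of 19 adaptors and docking proteins, 4 of 6 ubiquitin ligases and endocytosis factors, 4 of 7 RAS proteins and exchange factors, 10 of 13 kinases after RAS and 11 of 14 inhibitors and phosphatases. Of these 46, 42 were listed for EIF4B and for RNPS1, 41 for CPSF5 and for CPSF6, 31 for the GRB2 protein and for MBNL2, 18 for RBM10, 9 for RBM22 and 0 for LGALS3. The shares of all listed genes given above for each protein, such as 89.2% for EIF4B and 46.7% for the GRB2 protein, have the same base, genes with a window in some list. They were not matched to these 46 genes in length. Of listed protein-coding genes of at least 80 kb, 89.8% were in the GRB2 protein list, and the part of length in its 31 was not tested. Receptor genes without a window included ERBB3, PDGFRA and PDGFRB, and SHC2, SHC3, SHC4, GAB2 and GAB3, relatives of SHC1 and GAB1, had none either.

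The heaviest carriers among these genes were not the same from list to list. In the GRB2 protein list, IGF1R, an insulin-like growth factor receptor, had 784 windows (770 deep intron) and GRB10, an adaptor that dampens insulin receptor signalling, had 720 (691 deep intron). The strongest GRB10 window (chr7:50789526-50789625) had 174 IP reads and no input read at 7.30 and 7.38, above every GRB2 protein window of the members. It was the strongest of 720 windows, whereas CBL, the member with the most, had 64. IGF1R also led for CPSF5, with 28 windows, 27 of them in the 3' UTR. NF1, which encodes a RAS GTPase-activating protein, led for CPSF6 with 94 windows and for RNPS1 with 74, of which 66 were coding. These are long genes, with 316 kb for IGF1R, 203 kb for GRB10 and 283 kb for NF1. The part of length in their counts was not tested.

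The docking protein gene IRS4 was prominent in 3 lists. It led for EIF4B with 36 windows and for RBM22 with 40, 33 of them coding, and came after NF1 for CPSF6, with 58. The dynamin gene DNM2 led for RBM10 with 23 windows and came after IRS4 for EIF4B, with 31. PLCG1, a phospholipase gene, came after NF1 for RNPS1, with 61. The adaptor gene CRKL had 26 windows for MBNL2, 16 of them in the 3' UTR. CRKL came after IRS4 for RBM22 as well, with 2.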

How the data were processed

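eCLIP of 9 proteins in HEK293T cells was grouped by protein and library type (18 groups of 2 libraries). The authors deposited 9 tables of windows enriched in both replicates, in hg38 per the submitters' processing notes. Aligner, caller and annotation release are not given in the sources used. Per the file headers, the tables hold IP and input read counts, which the deposited tables give summed over replicates. The deposited log2 enrichment is an odds ratio, given as its minimum, mean and maximum over replicates, and its baseline is not known. The authors deposited for each window the smallest and largest p-value, and the same for the q-value, and no listed q-value was above 0.1999. The deposited GC fraction of a window is given here as a percentage. All sample columns were used (0 left out).

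Members were matched by gene symbol and lists counted per gene, feature class and window, with identical start, end and strand as shared. Gene ends came from the RefSeq table for GRCh38.p14, and sequences from its promoter table. The members and lists were chosen with earlier results of these data known. The text names all 8 members, in each member and list the window with the highest enrichment of the lower replicate, in each list the 2 other pathway genes with the most windows, and for each member the 2 genes nearest in window profile; further windows and the pathway genes at 0 were picked after their values were seen. Some genes that this rule names are not reported here. Counting scripts were tested on simulated data. Python 3.11.15, pandas 2.3.3, numpy 2.4.6, scipy 1.17.1 and matplotlib 3.10.9 were used. Alternatives were a stricter q-value, minimum IP or input reads, merged windows, read weights, wider overlap and ranking by the mean.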

Additional observations from a re-analysis of the deposited data

How the results depend on the processing

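With only windows of a highest q-value of at most 0.05, the 456 member windows fell to 233, with at least 20 IP reads to 299, and with adjoining windows merged to 266; requiring 1 input read left 388. The stricter q-value left RBM10 with 2 members listed and RBM22 with 0, and requiring an input read also left RBM10 with 2. Under the stricter q-value the shares were 100% in the 3' UTR for CPSF5, 75% in the 5' UTR for EIF4B, 96.3% deep intron for the GRB2 protein list and 94.7% coding for RNPS1. Weighted by IP reads, the EIF4B 5' UTR share was 92.8%. Windows listed for at least 2 proteins numbered 141 when windows within 100 nt counted as shared and 38 under the stricter q-value. Counts of members listed for the other 7 proteins stayed within 1.5 times under each of these settings. Ranking by the mean kept 31 of 39 strongest windows. The pathway genes with a window numbered 44 under the stricter q-value, an alternative chosen after seeing the data. No paired analysis was possible because the tables hold counts summed over replicates and no replicate columns, and leaving out each replicate was not run for the same reason. Windows with few reads limit what can be said of SOS2, SHC1 and the RBM10 and RBM22 lists.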

Other observations

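The genes whose windows were spread over the 9 lists most like those of each member were found by Euclidean distance between log2(windows + 1) values, as a description that shares gene length and RNA level. For the GRB2 transcript they were UBE2G1 (distance 0.898) and PPP3R1 (1.06), and for SOS1 CFDP1 (1.31) and UBE2G2 (1.39). SOS2 was nearest NIFK (0.689) and SPOUT1 (0.782), which span 9.93 and 10.1 kb, against 115 kb for SOS2. SHC1 was nearest CENPA (0.448), with 2 windows each for CPSF5 and CPSF6 as in SHC1, and the composite entry CTD-2550O8.5:NDUFA7 (0.829). CBL was nearest PLEKHB2 (1.28), which had 48 windows in the GRB2 protein list against 64 in CBL, and TM7SF3 (1.34). PTPN11 was nearest ATF2 (0.954), of 95.9 kb, and USP14 (1.17).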
